A study of Homo sapiens with 2 samples.

Results

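IFIT1, IFIT3, IFI44, IFI44L, SAMD9 and SAMD9L are interferon-induced genes that form 3 pairs of relatives. Each was higher on the array of H1299 cells given a miR-138 mimic than on the array of cells given a negative control (NC) mimic. The 6 genes were chosen by name, from 243 transcript clusters of the deposited table, because of their differences between these arrays, so the differences are described and carry no test. All 6 had 1 transcript cluster each (a probe group that reads 1 gene or transcript group). H1299 is an established human lung cancer line of epithelial origin.

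The groups were miR-138 mimic and NC mimic, with 1 array of total RNA each, taken 48 h after transfection with a lipid reagent at 70% confluence in medium with 10% serum. Both groups received a synthetic small RNA, and the labels name no untransfected cells and no interferon treatment. With 1 array per group there is no spread between replicates, so "higher" describes these arrays alone. The table held 104 clusters higher and 139 lower with the miR-138 mimic, and the smallest difference in it was 1.0 on the log2 scale. Genes with smaller differences were not analysed here. The cluster of MIR138-1 had a log2 signal of 14.07 with the miR-138 mimic and 6.13 with the NC mimic, the direction the labels give. None of the 5 markers listed for this line, KRT8, KRT18, VIM, CDH2 and EPCAM, was among the clusters, so the cell identity could not be checked.

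Cells that sense foreign RNA or DNA secrete type I interferon, which acts through its receptor to switch on many defence genes. Many of their promoters hold the interferon-stimulated response element (ISRE), a repeated GAAA motif. IFIT1 binds viral RNA whose cap lacks the host's methyl marks and blocks its translation, and IFIT3 binds IFIT1 and strengthens that hold. IFI44 and IFI44L are widely used markers of interferon exposure, with molecular roles that are less settled. SAMD9 and SAMD9L are large cytoplasmic proteins that restrict poxviruses and slow cell growth.

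The mature miR-138-5p is shown first because it is the small RNA that the miR-138 name usually denotes. The labels do not state the arm or the sequence of either mimic. Its 23 bases are from RefSeq (GRCh38.p14), where the genes MIR138-1 on chromosome 3 and MIR138-2 on chromosome 16 both encode it, and the capitals mark the seed, bases 2 to 8.
hsa-miR-138-5p: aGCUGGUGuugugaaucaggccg

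The 250 bases before the start of each gene follow, because all 6 genes were higher on the same array and their promoters can be compared for the ISRE. They are from RefSeq promoter windows (GRCh38.p14), which were found for all 6 genes, and are written in the direction of transcription. Capitals mark the ISRE core GAAANNGAAA, or TTTCNNTTTC where it lies on the opposite strand. IFIT1 lies at chr10:89392373-89392622 (plus strand) and IFIT3 at chr10:89327747-89327996 (plus). IFI44 lies at chr1:78649539-78649788 (plus) and IFI44L at chr1:78620198-78620447 (plus). SAMD9 lies at chr7:93117980-93118229 (minus) and SAMD9L at chr7:93148386-93148635 (minus).
IFIT1: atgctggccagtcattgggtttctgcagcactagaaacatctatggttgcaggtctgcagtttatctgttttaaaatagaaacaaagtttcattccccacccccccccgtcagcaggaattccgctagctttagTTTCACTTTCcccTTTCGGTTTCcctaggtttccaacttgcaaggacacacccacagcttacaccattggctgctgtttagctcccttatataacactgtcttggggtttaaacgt
IFIT3: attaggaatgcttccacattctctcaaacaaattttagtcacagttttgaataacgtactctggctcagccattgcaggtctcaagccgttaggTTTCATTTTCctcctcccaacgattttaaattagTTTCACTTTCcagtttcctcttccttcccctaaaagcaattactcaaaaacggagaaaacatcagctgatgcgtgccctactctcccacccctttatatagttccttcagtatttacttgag
IFI44: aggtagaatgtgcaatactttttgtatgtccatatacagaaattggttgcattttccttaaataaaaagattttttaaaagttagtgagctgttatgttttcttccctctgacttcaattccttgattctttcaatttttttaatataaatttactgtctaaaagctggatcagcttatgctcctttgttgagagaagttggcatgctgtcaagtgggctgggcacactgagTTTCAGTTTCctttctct
IFI44L: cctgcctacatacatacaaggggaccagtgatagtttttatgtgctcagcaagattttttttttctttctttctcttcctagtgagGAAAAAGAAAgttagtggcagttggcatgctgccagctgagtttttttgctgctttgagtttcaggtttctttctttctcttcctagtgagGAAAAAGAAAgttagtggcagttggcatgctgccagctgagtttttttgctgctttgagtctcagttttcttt
SAMD9: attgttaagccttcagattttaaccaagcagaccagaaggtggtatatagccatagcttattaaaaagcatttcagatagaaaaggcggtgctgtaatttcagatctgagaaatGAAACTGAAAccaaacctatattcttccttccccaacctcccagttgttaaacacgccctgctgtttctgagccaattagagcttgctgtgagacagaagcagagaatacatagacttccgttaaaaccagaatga
SAMD9L: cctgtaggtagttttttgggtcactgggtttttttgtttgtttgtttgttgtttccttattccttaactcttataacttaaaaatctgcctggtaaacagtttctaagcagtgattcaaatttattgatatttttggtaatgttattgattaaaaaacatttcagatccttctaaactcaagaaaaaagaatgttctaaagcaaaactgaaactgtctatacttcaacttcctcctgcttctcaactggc

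In the deposited values IFIT1 differed more than IFIT3, an order that turned with a constant of 50 added to the signal, as described with the other settings. IFIT1 (gene ID 3434, chromosome 10) had a log2 signal of 5.89 with the miR-138 mimic and 3.0 with the NC mimic, a difference of 2.89 or 7.41-fold. That NC mimic signal was the lowest of all 243 clusters on its array. IFIT3 (gene ID 3437, chromosome 10) had 8.06 with the miR-138 mimic and 6.21 with the NC mimic, a difference of 1.85 or 3.61-fold. The difference of IFIT1 minus that of IFIT3 was therefore 1.04 log2 units.

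In the IFI44 pair, the larger difference belonged to the L gene. IFI44 (gene ID 10561, chromosome 1) had a log2 signal of 6.96 with the miR-138 mimic and 4.97 with the NC mimic, a difference of 1.99 or 3.97-fold. IFI44L (gene ID 10964, chromosome 1) had 7.44 with the miR-138 mimic and 4.49 with the NC mimic. Its difference, 2.95 or 7.73-fold, was second only to that of MIR138-1 among the 243 clusters. The difference of IFI44 minus that of IFI44L was -0.96.

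In the SAMD9 pair, the gene without the L suffix differed more. SAMD9 (gene ID 54809, chromosome 7) had a log2 signal of 8.41 with the miR-138 mimic and 5.79 with the NC mimic, a difference of 2.62 or 6.15-fold. SAMD9L (gene ID 219285, chromosome 7) had 6.43 with the miR-138 mimic and 4.62 with the NC mimic, a difference of 1.81 or 3.51-fold. The gap was 0.81, the narrowest of the 3 pairs in the deposited values, though it was the widest with either constant described below. Each pair thus held 1 gene at 2.62 or more and 1 gene at 1.99 or less. The deposited values have 2 decimals, so rounding can move a difference by up to 0.01 and a gap by up to 0.02, well under these gaps. No array was repeated, so whether the gaps exceed the spread between cultures is unknown. Levels of different clusters come from different probes and are not read as relative transcript amounts of the genes. Below, signal strength serves only to mark dim clusters.

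**Figure D1:**
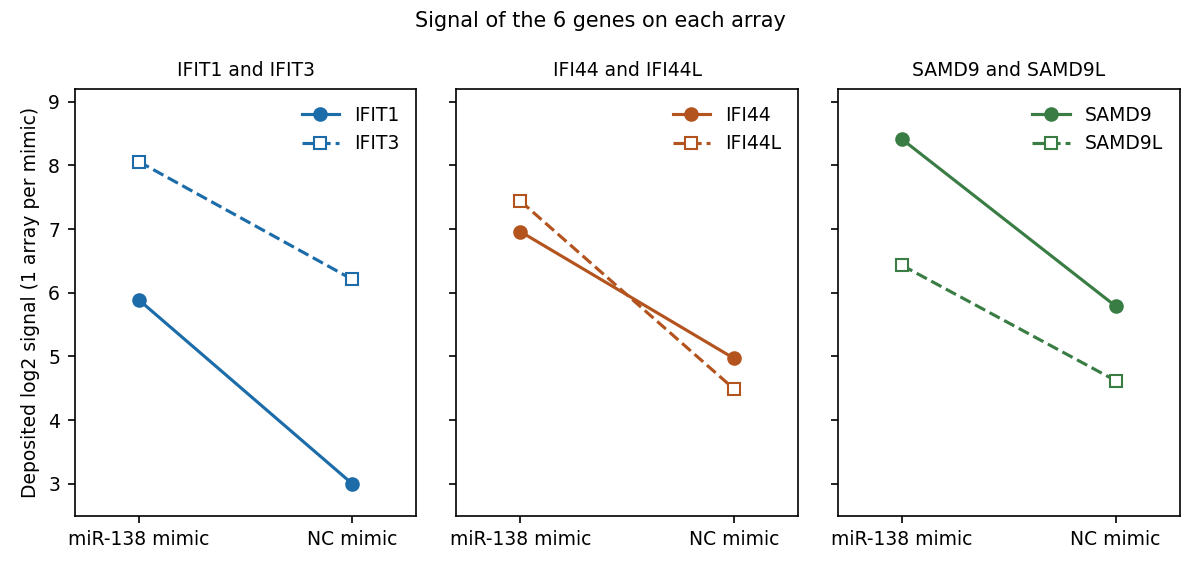
Deposited log2 signal (vertical axis) of the 6 genes on the miR-138 mimic array and on the NC mimic array, 1 panel per pair and 1 point per array. Every line is higher at the miR-138 mimic. IFIT1, IFI44L and SAMD9 have the steeper line of their pair, with differences of 2.89, 2.95 and 2.62.

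All 6 genes were higher by at least 1 log2 unit, where 42.8% of the 243 clusters were higher by that much. The smallest difference in the table was 1.0, so every higher cluster passed this limit. All 6 also passed 1.5, which 12.3% of the clusters did, and 3 of the 6 passed 2, which 3.70% did. These shares stand beside counts that the choice of genes used, and nothing is read from them. The median difference of the 6 was 2.31, against -1.05 for all 243 clusters and 1.23 for the 104 higher ones. With no difference smaller than 1.0 and more lower than higher clusters in the table, -1.05 is not a background level of the array. From the highest difference down, IFI44L, IFIT1 and SAMD9 stood at ranks 2, 3 and 4 of 243, and IFI44, IFIT3 and SAMD9L at ranks 10, 14 and 18. Rank 10 was shared with RIGI.

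**Figure D2:**
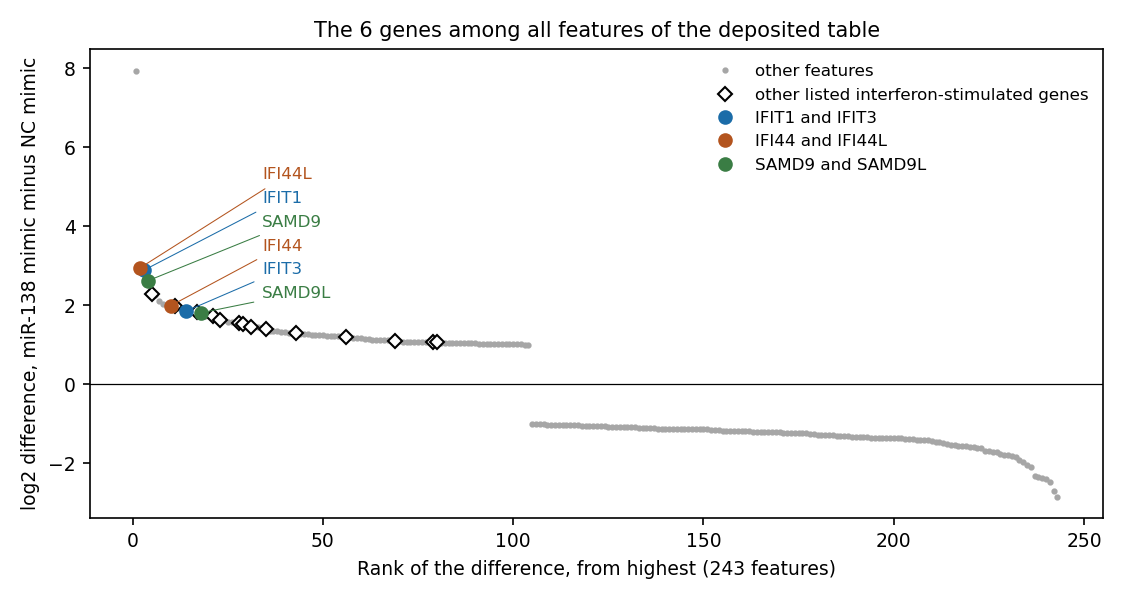
The log2 difference, miR-138 mimic minus NC mimic (vertical axis), of all 243 clusters in order from the highest (horizontal axis). Coloured points are the 6 genes, at ranks 2 to 18. Open diamonds are 14 other interferon-stimulated genes, listed with earlier results of these data known, all above 0. The band around 0 is empty because the smallest difference in the table was 1.0.

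The size of each difference, and the order within the IFIT pair, depended on how dim signals were treated. A constant added to the linear signal before taking log2 damps differences of dim clusters. On the linear scale IFIT1 had a signal of 59.3 with the miR-138 mimic and 8.0 with the NC mimic, so a constant of 16 exceeds the lower value. With that constant IFIT1 and IFIT3 both differed by 1.65, a gap of 0.00. With a constant of 50, IFIT1 differed by 0.91 and IFIT3 by 1.35, and the gap turned to -0.44. The gap was 0 at a constant of 15.9, a search added after the data were seen. The order in the other pairs did not turn under either constant, but no added constant could have turned it. IFI44L and SAMD9 also had the larger linear differences, 151.2 against 93.16 for IFI44 and 284.8 against 61.63 for SAMD9L. For IFIT1 it was 51.3 against 192.8 for IFIT3, so a large enough constant had to turn that pair. The constants are therefore no check of the order in any pair. With 50, IFI44 differed by 1.10 and IFI44L by 1.63, and SAMD9 by 1.89 and SAMD9L by 0.87. IFIT1, IFI44, IFI44L and SAMD9L were among the 61 clusters in the lowest 25% of mean signal, under a log2 level of 6.57, and only IFIT3 and SAMD9 were not. The files analysed here give no detection call, so whether the dim values lie above the array's background was not tested.

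**Figure D3:**
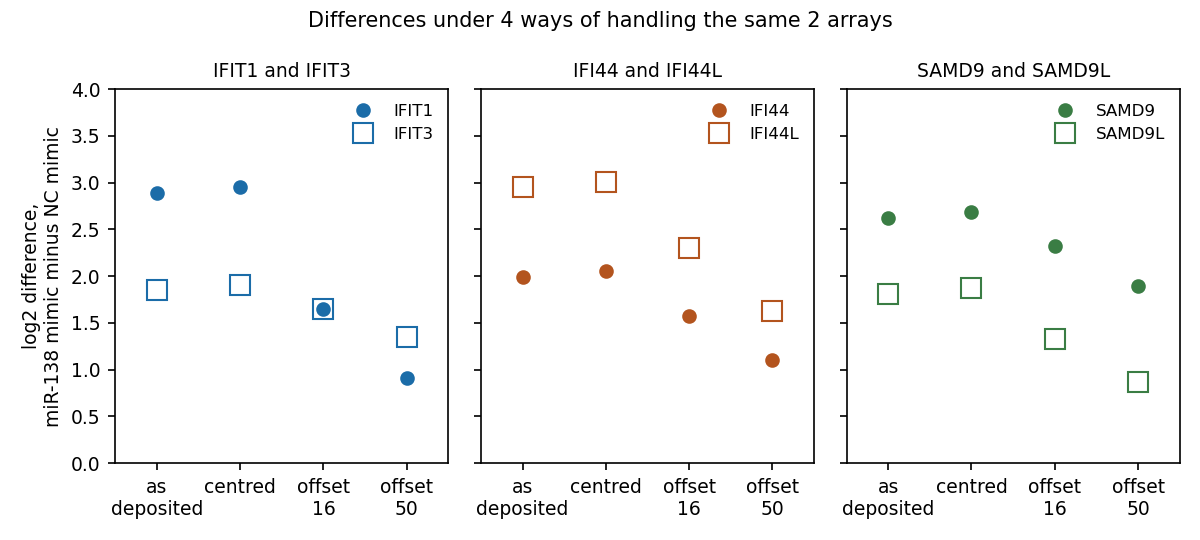
The log2 difference, miR-138 mimic minus NC mimic (vertical axis), of each gene as deposited, with each array centred on its median over the table, and with a constant of 16 or 50 added to the linear signal. In the IFIT pair the symbols meet at 1.65 with a constant of 16 and swap order with 50. In the IFI44 and SAMD9 pairs IFI44L and SAMD9 stay above their partners, as they must under any added constant.

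The other interferon-stimulated genes of the table differed in the same direction. Of 109 listed symbols beyond the 6 genes, 14 were among the clusters, with 14 higher and 0 lower. Their median difference was 1.49, with a range of 1.06 to 2.28. Of all 243 clusters, 104 or 42.8% were higher. The list was written with earlier results of these data known, so nothing is read from the shared direction. The double-stranded RNA sensor IFIH1 had the largest, with a log2 signal of 8.43 with the miR-138 mimic and 6.15 with the NC mimic. The related sensor RIGI had 8.0 with the miR-138 mimic and 6.01 with the NC mimic, a difference of 1.99. The helicase DDX60 differed by 1.63, the nucleotide hydrolase SAMHD1 by 1.20 and the oligoadenylate synthetase relative OASL by 1.40. PARP9 and PARP14, ADP-ribosyltransferase family members, differed by 1.29 and 1.45, and the nuclear body proteins SP100 and SP110 by 1.09 and 1.06. HERC6 (1.82), CCL5 (1.72), ISG15 (1.54), UBE2L6 (1.53) and OAS1 (1.06) complete the list. In the deposited values IFIT1, IFI44L and SAMD9 each lay above all 14, whereas SAMD9L, at 1.81, lay just below HERC6. With a constant of 16 added to the signal, 2 of the 14 lay above IFIT1, at 1.65, and IFIH1 had 2.05. With 50, 12 of the 14 lay above IFIT1 and 1, IFIH1 at 1.71, above IFI44L at 1.63, and SAMD9 stayed above all of them. None of 40 listed genes of interferon production and signalling, such as IFNB1 and IFNAR1, was among the clusters, and these were not analysed here.

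For each of the 6, the gene outside the 6 with the closest difference between these 2 arrays was looked up. For IFIT1, IFI44L and SAMD9 it was IFIH1, at 2.28, which lay 0.61, 0.67 and 0.34 below them. For IFI44 it was RIGI, at the same 1.99. For IFIT3 it was ANKRD1, at 1.83, and for SAMD9L the long non-coding RNA gene DSCR9 and HERC6 were equally close, both at 1.82. With 2 arrays, closeness means only that single differences are alike in size.

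Of the listed markers of other cells, none of 6 for immune cells was among the clusters. Of 6 for fibroblasts and endothelium 1 was, DCN, a matrix proteoglycan, at 4.55 with the miR-138 mimic and 7.02 with the NC mimic, a difference of -2.47. Its part in the differences of the 6 genes was not tested.

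The genes of each pair lie close together in the genome. By the RefSeq gene order (GRCh38.p14), IFI44L and IFI44 are direct neighbours on chromosome 1, and so are SAMD9 and SAMD9L on chromosome 7. Between IFIT3 and IFIT1 on chromosome 10 lie IFIT1B and the pseudogene IFIT6P, with IFIT2 and IFIT5 on the outer sides. None of the 20 genes between the pairs or within 3 places on either side was among the 243 clusters, the other IFIT genes included. Smaller changes in those neighbours were outside what the table shows.

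The ISRE core was present in the promoter windows of 5 of the 6 genes. Windows run from 250 bases before the start to 50 after it, and both strands were searched. IFIT1 held the core at bases -116 and -103 (the first base of each match, counted from the start) and IFIT3 at -156 and -122. A second IFIT3 window, at a later start, held 2 more, at -94 and -51. IFI44 held 1, at -18. Its second window begins 42 bases further on and holds the same match at -60. IFI44L held the core at -164 and -73, and SAMD9 at -136. SAMD9L held none, which says only that these letters are not in this window.

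The core was far less common in promoters at large. It was found in 7 of the 8 windows of the 6 genes, 2 of which overlap, and in 3.57% of all 35116 windows. By gene, it was found in 5 of 6, in 5 of the 12 other listed interferon-stimulated genes with a window (DDX60, IFIH1, ISG15, PARP9 and PARP14), in 1 of 55 other higher genes, in 6 of 104 lower genes and in 4.38% of all 27305 genes. TATAAA, on either strand, was in 3 of the 8, from IFIT3 and IFI44, and in 11.5% of all windows. The genes were known as interferon-induced when they were chosen, and such matches are a description of letters, not of binding.

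**Figure D4:**
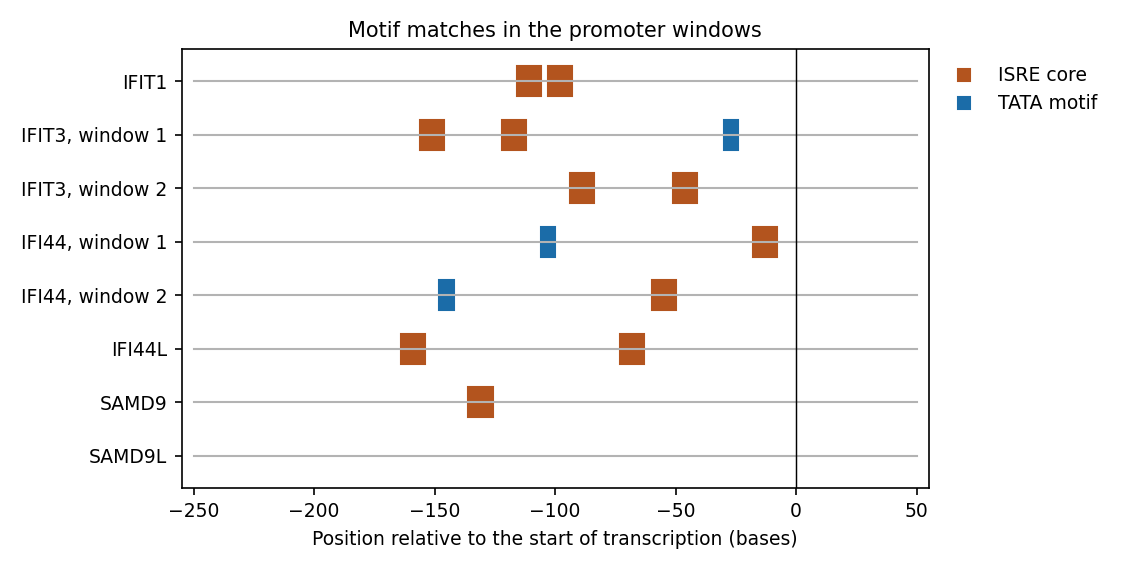
Matches of the ISRE core and of the TATA motif in the 8 promoter windows, by position in bases from the start of transcription (horizontal axis, 0 at the start). IFIT1, IFI44L and both IFIT3 windows have 2 ISRE cores each, IFI44 and SAMD9 have 1 per window, and the SAMD9L line is empty.

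The printed promoters also shared stretches within pairs. IFIT1 and IFIT3 had a run of 15 bases in common, ttagtttcactttcc, which spans an ISRE core in both. The longest run shared by IFI44 and IFI44L was agttggcatgctg, 13 bases that lie outside the marked cores, and SAMD9 and SAMD9L shared catttcagat, 10 bases. Between genes of different pairs, the longest shared run was 7 to 12 bases over 12 comparisons, a range that holds the 10 bases of the SAMD9 pair. Within the IFI44L promoter a stretch of 85 bases occurred at 2 places, 91 bases apart, and each copy holds 1 of its ISRE cores. In the other 5 promoters the longest repeated run was 7 to 14 bases. These comparisons were added after the sequences were seen, and no test was made.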

How the data were processed

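The authors deposited 1 log2 signal per transcript cluster and array, made with Affymetrix Expression Console per the submitters' processing notes. The sources used here give no version, summarisation, normalization, filter or build. The values were read as log2 from their range, 3.0 to 14.07. Of 243 clusters, the platform annotation gave 220 a single gene, 10 several and 13 none. Named genes were the 6, listed interferon genes and the gene closest in difference. Differences are miR-138 mimic minus NC mimic. No test was made, as each group had 1 array. The number of arrays limits the precision. Alternatives were centring, constants of 16 and 50 added to the linear signal, leaving out the lowest 25% of mean signal, clusters with 1 gene, and a limit of 1.5. The genes and lists were chosen with earlier results of these data known. A planned protein comparison was not made, and 1 planned motif is not reported here. The search for the exact ISRE core and the subtraction of the arrays were run on simulated data with known answers, which checks the code alone. The searches for TATAAA, mismatches, shared runs and repeats were not checked in this way. Python 3.11.15, NumPy 2.4.6, pandas 2.3.3 and Matplotlib 3.10.9 were used.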

Additional observations from a re-analysis of the deposited data

How the results depend on the processing

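Centring the arrays on their medians added 0.06 to each difference, so it left the gaps as they were, gave a median of 2.37 for the 6 genes and brought 4 of them to at least 2. A constant of 16 gave gaps of 0.00 for IFIT1 minus IFIT3, -0.73 for IFI44 minus IFI44L and 0.99 for SAMD9 minus SAMD9L, a median of 1.65 for the 6 genes, and 65 clusters higher by at least 1. A constant of 50 gave gaps of -0.44, -0.52 and 1.02, a median of 1.23, 4 of the 6 genes and 41 clusters higher by at least 1, and 0 of the 6 genes higher by at least 2. The constants damp dim clusters by construction. Leaving out the lowest 25% of mean signal kept IFIT3 and SAMD9, so no pair was left. The median was then 2.24, with 2 genes higher by at least 1, 1 by at least 2, and 69 clusters higher. A limit of 1.5 kept all 6 genes, 7 of the 14 other interferon-stimulated genes and 30 clusters. Keeping clusters with 1 gene changed none of the values of the 6 genes. No paired analysis was possible because each group had 1 array, which also left no replicate to leave out. Cross-hybridisation within a pair was not tested, since probe sequences were not used here.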

Other observations

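A search for the ISRE core with up to 1 mismatch was added after the data were seen. SAMD9L then had 1 match, AAAACTGAAA at base -48 of its promoter, which differs from the core by G1A (positions counted from 1 at the core's first base). Matches at this looser limit were found in all 6 genes, in 9 of the 12 other listed interferon-stimulated genes with a promoter window, in 20 of 55 other higher genes and in 37 of 104 lower genes. Across all promoter windows 33.0% held one, so such a match is common.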
